A study of Mus musculus with 7 samples.

Results

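The 9 genes described here carry the Hedgehog signal from ligand to nucleus: the ligand Shh, the receptor Ptch1, the coreceptors Boc and Cdon, the ligand-binding antagonist Hhip, the signal transducer Smo, and the transcription factors Gli1, Gli2 and Gli3. They were taken as a list of names, and the rule used no measured value, although the list was drawn up with earlier results of these data known. Every ATAC-seq peak between 50 kb upstream and 50 kb downstream of each gene body (GRCm38) was collected. Peaks that passed a q-value of at most 0.01 in at least 1 of the 7 libraries were merged into regions where they shared 1 bp. The 9 genes held 279 of the 210347 regions so built.

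Hedgehog ligands bind Ptch1, and this binding lifts the block that Ptch1 sets on Smo. Active Smo, in the primary cilium, turns the Gli factors towards activation: Gli2 is the main activator, Gli3 works largely as a repressor in the absence of ligand, and Gli1 is an activator that is itself a target of the pathway. Ptch1 and Hhip are also targets, and both limit the signal by holding ligand, whereas Boc and Cdon help to present it. In the embryonic heart, Shh made by the foregut and pharyngeal endoderm signals to second heart field (SHF) mesoderm, and this signal is needed for septation of the outflow tract and for the dorsal mesenchymal protrusion at the venous pole.

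Cells were sorted from the dissected SHF region of pooled E9.5 mouse embryos of 2 lines. GFP+ (2 libraries) and GFP- (2 libraries) cells came from Hoxb1GFP embryos, in which GFP is inserted at Hoxb1, a gene of the posterior SHF. The study's methods list Hoxb1GFP among alleles denoted Hoxb1-, and any effect of the allele on Hoxb1 was not tested. Tomato+ (2 libraries) and Tomato- (1 library) cells came from Mef2c-Cre;RosatdT embryos, in which Cre under an anterior heart field element of Mef2c permanently turns on the tdTomato reporter. This Cre labels cells that build the outflow tract and right ventricle, and also some cells of the venous pole. All embryos of a line carried its reporter, and the zygosity of the alleles is not given in the sources used here. Each population came from its own mouse line, so the difference between GFP+ and Tomato+ cells cannot be told apart from a difference between the lines, the Hoxb1 allele included. In what follows, values are listed in the order of GFP+ libraries 3 and 4, GFP- libraries 1 and 2, Tomato+ libraries 6 and 8, and Tomato- library 7, the numbers being those of the sequencing adapters. The header of the list of Tomato+ library 6 carries a run name that refers to YFP, although the labels say Tomato. The label was kept, and the main values without this library are given beside the comparison of the sorts.

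The DNA under 5 of the peaks is shown first, since these stretches carry the patterns reported after them. GLI proteins bind a motif with the consensus GACCACCCA, and 3 of the sequences were chosen because they hold an exact copy of it inside a peak, shown in capitals. The upstream Ptch1 sequence is cut where the transcript begins. The Gli3 sequence lies at the summit of its promoter peak, which had the largest GFP+ minus Tomato+ difference among the genes' own promoters (not past the threshold), and has its CG dinucleotides in capitals. The Smo sequence in intron 1 lies under the highest peak of all 279 regions, and each copy of TGTGC is in capitals. All are from the reference genome (GRCm38), read 5′ to 3′ on the strand named.
Ptch1 internal promoter, chr13:63566385-63566493, plus strand: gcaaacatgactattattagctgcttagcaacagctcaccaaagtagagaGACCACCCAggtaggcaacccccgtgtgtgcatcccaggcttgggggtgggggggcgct
Ptch1 upstream promoter, chr13:63573461-63573523, minus strand: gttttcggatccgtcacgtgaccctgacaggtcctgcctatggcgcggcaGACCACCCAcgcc
Smo upstream region, chr6:29719023-29719131, minus strand: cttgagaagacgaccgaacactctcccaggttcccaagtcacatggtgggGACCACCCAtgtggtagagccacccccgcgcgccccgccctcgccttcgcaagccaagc
Gli3 promoter, chr13:15463111-15463231, plus strand: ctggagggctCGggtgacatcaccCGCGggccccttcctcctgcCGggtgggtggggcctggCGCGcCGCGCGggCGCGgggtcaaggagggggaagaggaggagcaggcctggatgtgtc
Smo intron 1, chr6:29748288-29748408, plus strand: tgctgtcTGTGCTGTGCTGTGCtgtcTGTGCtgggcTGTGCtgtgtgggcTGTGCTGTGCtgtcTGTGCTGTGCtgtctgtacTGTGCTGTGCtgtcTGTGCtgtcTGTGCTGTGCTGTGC

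The libraries held 52340120 to 93074895 tags, as derived from the background level of each list, and 187914 to 291287 peaks each, of which 64306 to 77746 had a q-value of at most 0.01. The 9 Hedgehog genes contributed 71 to 93 regions at that limit per library. Most of the regions passed the limit in 1 library only: 182 of 279 (65.2%), beside 65.8% of all regions. Some of these 182 had peaks below the limit in other libraries. Another 22 (7.89%) passed it in all 7 libraries, beside 11.2% of all regions. Those 22 comprised 7 at the genes' own 5′ ends, 6 at promoters of neighbouring genes that fall in the windows, and 9 distal regions. Peak height is given as the fold enrichment of the deposited lists, the tag pileup at the summit over the local background of the same library.

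Most of the 9 genes had a promoter peak in every library, Gli1 in some of them, and Shh in none. A promoter was defined as 1000 bp upstream to 100 bp downstream of a curated RefSeq start site. By this definition 6 of the 9 genes (66.7%) had a promoter peak of q at most 0.01 in all 7 libraries, beside 53.1% of 21000 coding genes. They were Ptch1, Boc, Hhip, Smo, Gli2 and Gli3. Gli1 passed in 4 libraries. Shh and Cdon had no promoter peak of any kind in any library (22.2% of the 9 genes), a state shared by 18.2% of coding genes. In bulk material, fewer open cells and less open chromatin per cell cannot be told apart.

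**Figure D1:**
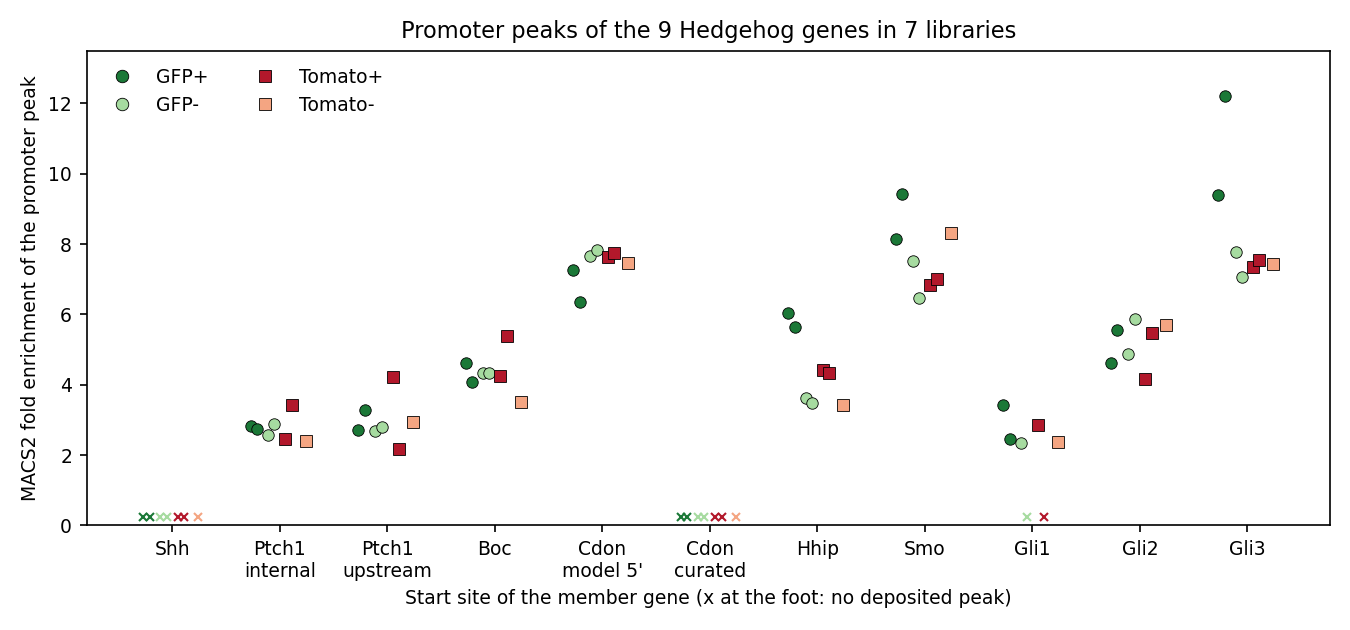
Fold enrichment of the promoter peak (vertical axis, no unit) at each start site of the 9 genes, with 1 symbol per library coloured by sorted population and a cross at the foot where the list has no peak. Gli3, Smo and Cdon (at the 5′ end of its model transcripts) stand at 6.34 or above in all 7 libraries, whereas Shh and the curated start site of Cdon have only crosses.

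Shh, the ligand, was the least accessible of the 9 genes. No peak lay in its promoter (start site at chr5:28467101, minus strand) in any library, and 0 of its 15 regions passed the q limit in all 7 libraries. Its window held 2 to 5 peaks of q at most 0.01 per library, a median of 2.72 per 100 kb, below the median of 4.42 over all coding genes. The most widely shared region lay in intron 1, 2.5 kb into the gene (chr5:28464517-28464932). It gave 2.92, 2.78, 2.48, 2.76, 3.43, 3.26 and 2.86, with q at most 0.01 in 5 libraries, the exceptions being the GFP- pair. Both Tomato+ values were above both GFP+ values, but the difference was about the size of its error (GFP+ minus Tomato+ -0.23 ± 0.23 on the log2 scale, limma SE, adjusted p = 0.822). The highest region, 15.9 kb from the start and beyond the 3′ end (chr5:28451127-28451567), gave 3.61, 2.25, no peak, 3.26, 3.35, 3.96 and 2.59 and passed in 4 libraries. The long-range enhancers known for Shh lie far outside the window and are not described here.

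Ptch1, the receptor and a pathway target, had low peaks at both of its curated start sites, present in all 7 libraries, of which the internal one passed the q limit in all 7 and the upstream one in 4. The internal promoter in intron 1 (chr13:63565968-63566613), the first sequence printed above, had a GLI match 27 bp from its summit. It passed the q limit in all 7 libraries, at 2.57, 2.73, 2.56, 2.88, 2.47, 3.41 and 2.41. A second region of the same promoter (chr13:63565341-63565846), with no GLI match, passed in 3 libraries and held the higher promoter peak of GFP+ library 3, at 2.82. The upstream promoter (chr13:63573272-63573821) had its GLI match 64 bp from the summit and gave 2.71, 3.27, 2.67, 2.79, 4.21, 2.18 and 2.93. It passed in 4 libraries, and the highest and the lowest of its 7 values were the 2 Tomato+ libraries. Ranked by fold enrichment within each library, these promoter peaks stood between positions 30854 and 194821 from the top, and the median of the internal one was 116555, or 38918 when ranked by p-value. The strongest region of the locus lay between the start sites, 5.5 kb into intron 1 (chr13:63567830-63568306), at 6.39, 4.85, 4.94, 4.17, 4.3, 6.33 and 6.09. No group stood apart there, since the libraries of each sort overlapped.

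Boc and Cdon, which encode related cell-surface coreceptors, both had a region at the 5′ end and a distal region with peaks in all 7 libraries. The Boc promoter gave 4.63, 4.09, 4.32, 4.33, 4.24, 5.4 and 3.5. Its distal region in intron 1, 27.9 kb into the gene (chr16:44530602-44531755), was higher, at 7.01, 6.57, 8.99, 7.71, 5.33, 5.8 and 6.51. There the 4 libraries of the Hoxb1GFP line were all above the 3 of the Mef2c-Cre line after centring, and within the Hoxb1GFP line the GFP- pair was the higher. The difference between GFP+ and Tomato+ cells was 0.29 ± 0.23 (log2, limma SE, adjusted p = 0.764).

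The only curated start site of Cdon is internal to the gene (chr9:35452076), and it had no peak. A strong peak lay instead at the 5′ end of the model transcripts (chr9:35420971-35422211), at 7.25, 6.34, 7.67, 7.82, 7.62, 7.75 and 7.46, and this second start site was added after the values were seen. The values were close in all populations, with GFP+ cells slightly lower (-0.18 ± 0.22 against Tomato+ cells, limma SE, log2, adjusted p = 0.867). The distal region beyond the gene, 113.7 kb from the 5′ end (chr9:35534969-35535465), gave 5.81, 5.78, 3.78, 5.53, 6.68, 6.99 and 3.98. It was the only one of 42 tested regions in which all 4 sort-positive libraries were above all 3 sort-negative ones (2.38%), beside 2.57% of all tested regions. Of its bases, 39.4% are soft-masked as repeats in the reference.

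Hhip, the antagonist that binds ligand at the membrane, had a promoter peak in all 7 libraries with its highest values in GFP+ cells. The promoter peaks gave 6.04, 5.65, 3.63, 3.49, 4.43, 4.34 and 3.42. The GFP+ pair was above the other 5 libraries. Over the whole promoter region (chr8:80057156-80058622) the log2 difference was 0.41 ± 0.25 against Tomato+ cells and 0.53 ± 0.25 against GFP- cells (limma SE, adjusted p = 0.677 and 0.781). The distal region 138.4 kb from the start (chr8:79919414-79919845) varied widely inside groups, at 3.61, 6.76, 3.27, 5.97, 3.94, 3.11 and 4.1. The GFP+, GFP- and Tomato+ ranges overlapped. The single Tomato- library lay above both Tomato+ libraries but within the GFP+ and GFP- ranges.

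Smo, the 7-pass membrane protein that relays the signal, had the highest peak of the 9 genes, over repetitive DNA. The promoter (chr6:29735201-29736511) gave 8.14, 9.42, 7.51, 6.47, 6.85, 7.02 and 8.32. The Tomato- library lay within the range of the GFP+ pair, and the GFP+ minus Tomato+ difference was 0.34 ± 0.22 (limma SE, log2, adjusted p = 0.706). The region 12.9 kb into intron 1 (chr6:29747662-29749071) gave 13.1, 13.7, 14.3, 14.2, 13.9, 13.4 and 13.2, at -log10 q values of 190 to 333. It is a tandem repeat: 99.7% of its bases are soft-masked and it holds 196 copies of TGTGC, of which 15 are in the stretch printed above. Its height was nearly the same in all 7 libraries, and the part that alignment to repeats has in it was not tested. A further distal region 16.4 kb upstream of Smo (chr6:29718911-29719278), with a GLI match 23 bp from the summit, is described with the comparison of the sorts.

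Gli1, the activator that is also a target, had a weak promoter that was patchy within the window used. Its best promoter peaks gave 3.41, 2.47, 2.34, no peak, 2.85, no peak and 2.36, and 4 libraries passed the q limit. The 3.41 of GFP+ library 3 lay 0.9 kb upstream, and its peak at the start site gave 2.67. The 2 libraries without a promoter peak were a GFP- and a Tomato+ library, so the absence did not follow the sort. Outside that window, a region 0.8 kb into the gene (chr10:127340590-127341021) had peaks in all 7 libraries. They gave 3.58, 3.34, 3.03, 2.68, 2.76, 2.68 and 2.12, and 6 libraries passed. Another region, 2.5 kb into the gene, passed in all 7. The locus is gene-dense, with 15 to 20 peaks of q at most 0.01 per library and a median density above that of 99% of coding genes, but 8 of its 25 regions were promoters of neighbours such as Ddit3, Mars1 and R3hdm2. The highest distal region (chr10:127318904-127319098), 22.6 kb from the start and beyond the 3′ end, gave 4.72, 5.38, 6.04, 7.17, 4.76, 5.95 and 5.44. It and the next region 21.6 kb from the start are 53.8% and 86.7% soft-masked.

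Gli2 and Gli3, which carry most of the activator and repressor output, had promoters of intermediate and high accessibility. The Gli2 promoter (chr1:119053263-119054288) gave 4.62, 5.55, 4.86, 5.86, 4.16, 5.47 and 5.69. The GFP+, GFP- and Tomato+ ranges overlapped. The single Tomato- library lay above both GFP+ and both Tomato+ libraries but within the GFP- range. Its gene body, 220.3 kb long, held 2 further regions that passed in all 7 libraries, in introns 1 and 2, and the one in intron 1 (chr1:119033566-119034320) gave 3.17, 3.78, 3.22, 4.65, 3.85, 4.01 and 4.59. The Gli3 promoter (chr13:15462705-15464587) gave 9.39, 12.2, 7.78, 7.05, 7.36, 7.56 and 7.43. The GFP+ pair lay above the other 5 libraries, which spanned 7.05 to 7.78. In GFP+ library 4 this peak stood at position 2190 from the top, above 98.1% of coding gene promoters, and in GFP+ library 3 at position 4811, above 90.2%. In the other 5 libraries it stood at positions 7044 to 9443, above 78.2% to 87.1%. The promoter also lies in the body of an antisense non-coding gene, Gm6556. The highest distal region of Gli3, 78.6 kb into the gene in intron 2 (chr13:15541958-15542451), gave 6.94, 4.4, 6.46, 4.67, 3.08, 5.68 and 4.98 and separated no population.

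Ordered by the median over 7 libraries, the promoter levels ran from Cdon (7.62 at its model 5′ end), Gli3 (7.56) and Smo (7.51) through Gli2 (5.47), Hhip (4.34) and Boc (4.32) to Ptch1 (2.79 and 2.73), Gli1 (2.47 over 5 libraries) and Shh. The ranges of the highest 3 overlapped. Gli2, at 4.16 to 5.86, lay below all of them, since their lowest value was 6.34. Gli2, Hhip and Boc overlapped each other, as did Ptch1 and Gli1, and Ptch1 reached into the range of the 3 genes above it. Fold enrichment is relative to a local background, so this order describes peak height and not the number of open cells.

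**Figure D2:**
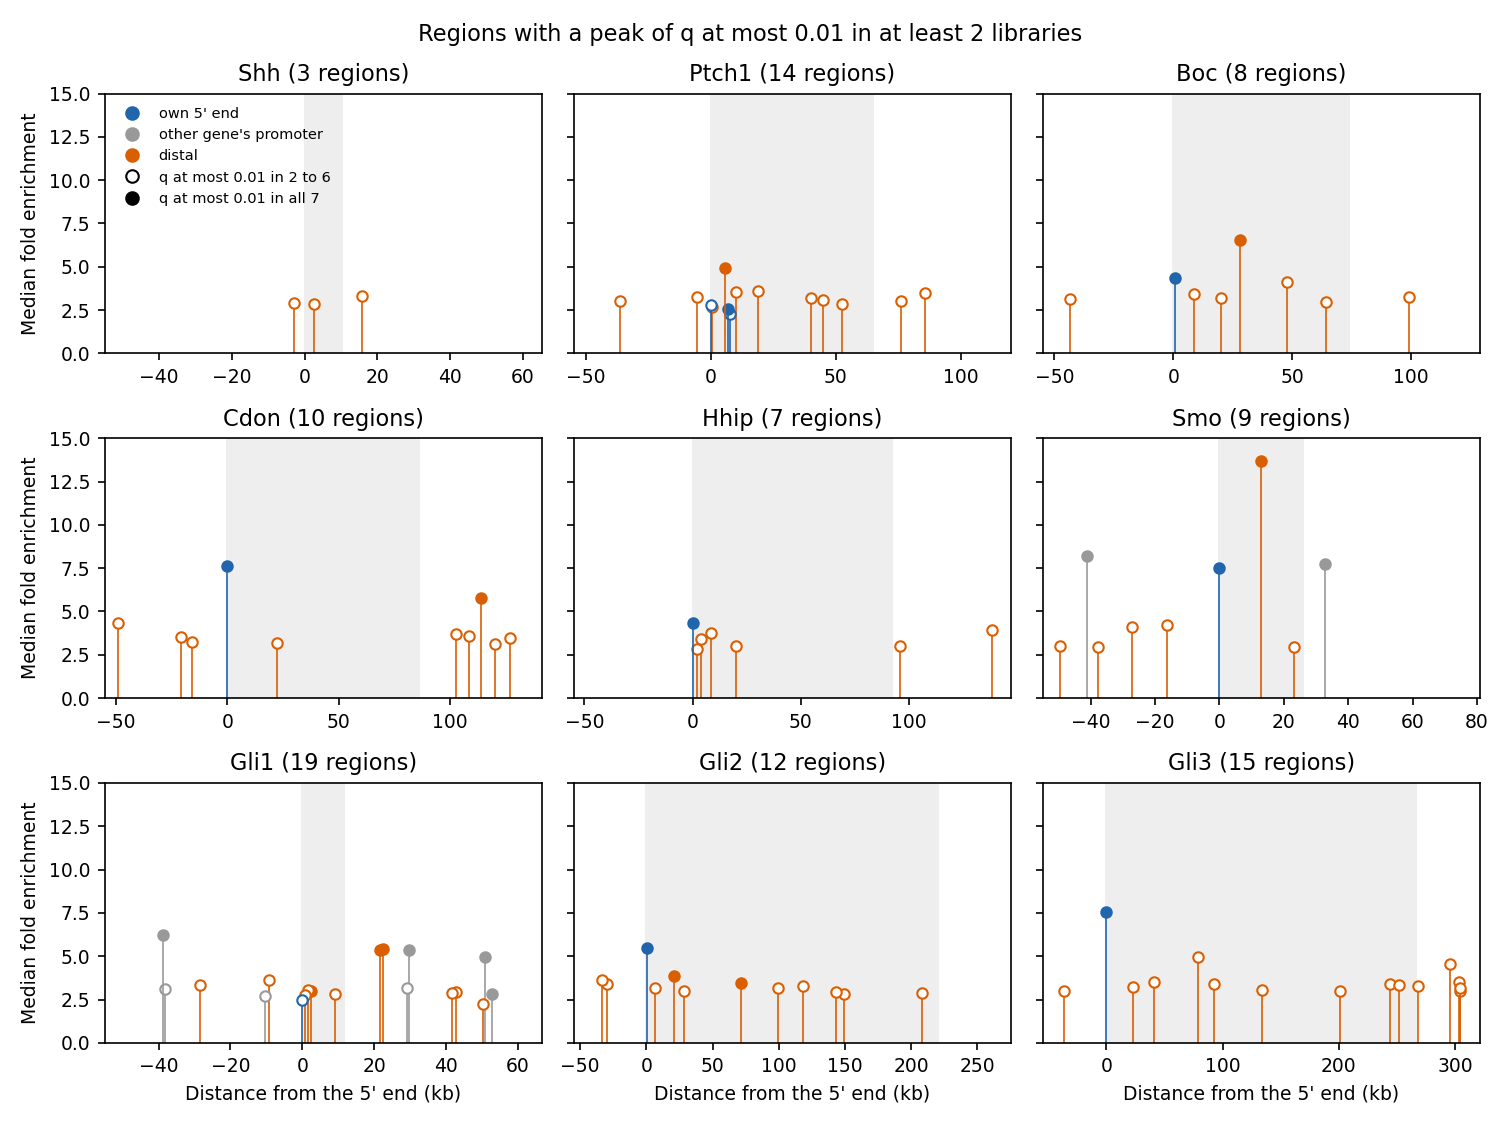
Median fold enrichment over the libraries with a peak (vertical axis) against distance from the gene's 5′ end in kb (horizontal axis, gene body shaded) for the 97 regions with q at most 0.01 in at least 2 libraries. Filled symbols mark the 22 regions that passed in all 7 libraries, and the highest, at 13.7, is the tandem repeat in intron 1 of Smo.

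The main comparison of the study sets GFP+ against Tomato+ cells, the posterior against the anterior SHF. None of the Hedgehog regions differed between them at the threshold. Of the 279 regions, 42 had a deposited peak in all 7 libraries and entered a limma fit of log2 fold enrichment, centred on the median of each library. An adjusted p below 0.1 was reached by 0 of the 42, beside 0.123% of the 34032 regions tested (42 regions, 10 higher and 32 lower in GFP+ cells, or 137 and 54 with the pileup scaled to tag number as the measure). By unadjusted p under 0.05, 3 Hedgehog regions passed, beside 8.84% of all regions, and the lowest adjusted p among them was 0.438. Differences ran from -0.64 to 0.65, with 20 above 0 and 22 below, and a median SE of 0.25. Their median size was 0.193, beside 0.196 over all regions.

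**Figure D3:**
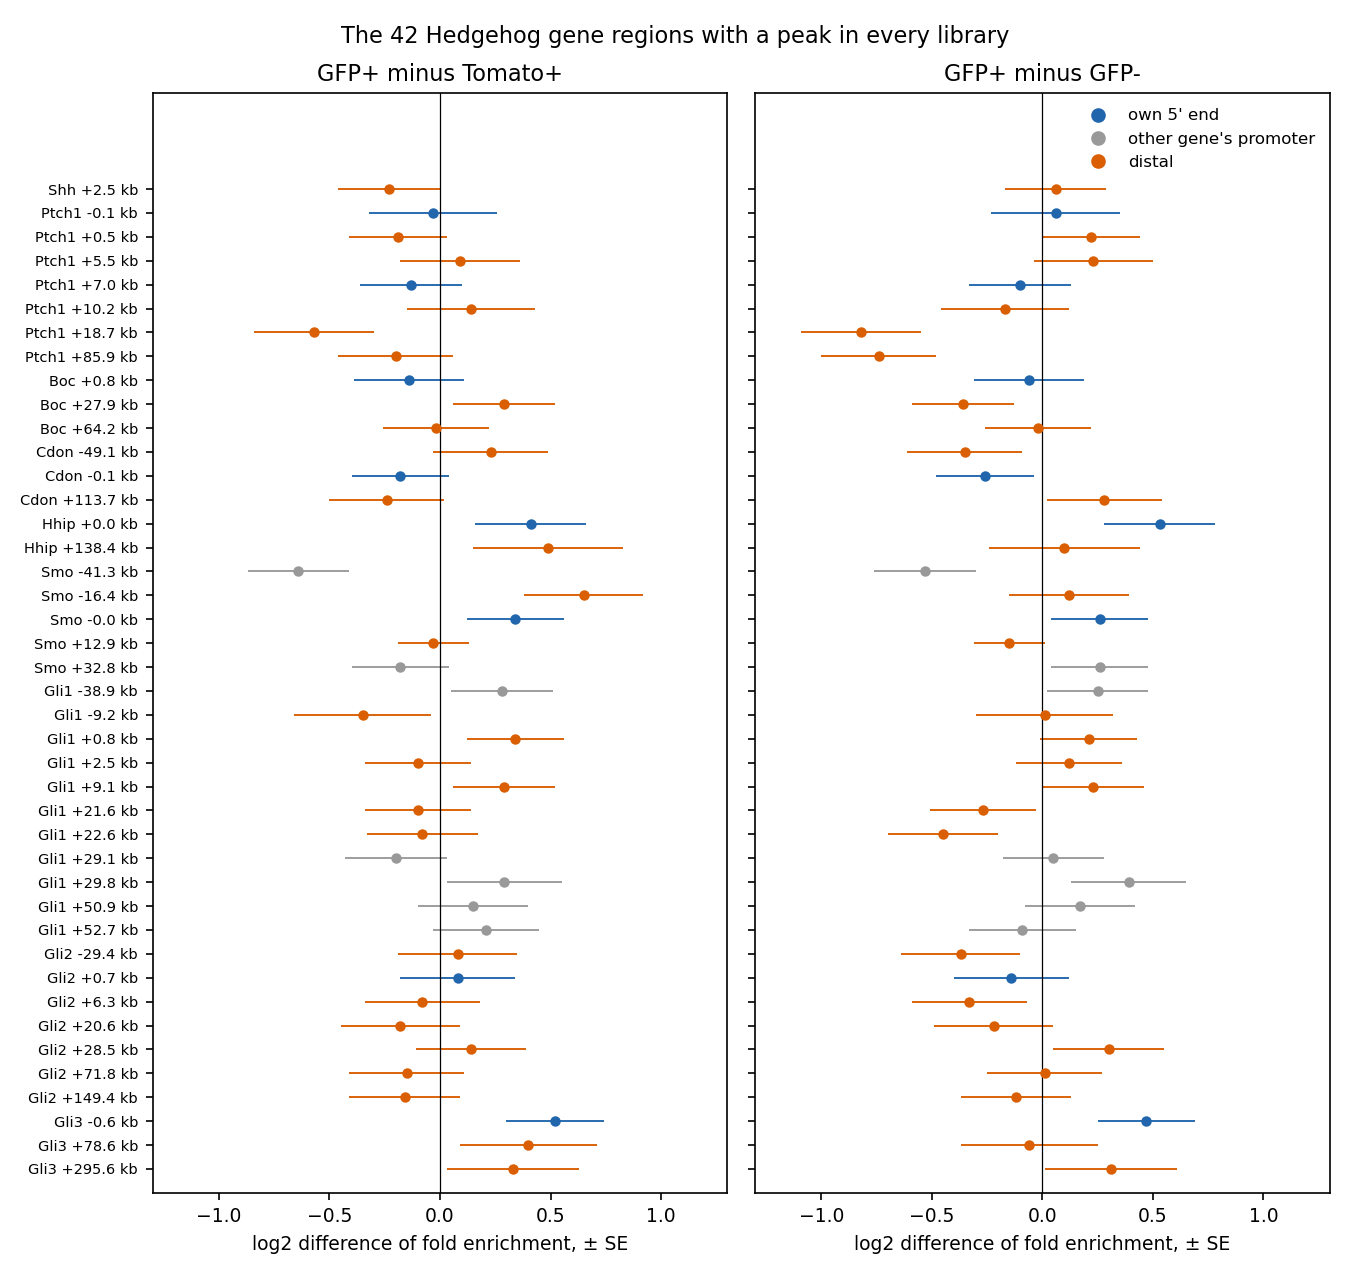
Log2 differences of centred fold enrichment (horizontal axis) with their limma SE (bars) for the 42 regions with a peak in every library, GFP+ minus Tomato+ on the left and GFP+ minus GFP- on the right. Rows name the gene and the distance from its 5′ end, and the Gli3 promoter is the highest of the genes' own 5′ ends on the left, at 0.52.

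The 3 regions with an unadjusted p under 0.05 were the Gli3 promoter, a region upstream of Smo and a neighbour's promoter. The Gli3 promoter was 0.52 ± 0.22 higher in GFP+ than in Tomato+ cells on the log2 scale (limma, unadjusted p = 0.0301, adjusted p = 0.504). Against GFP- cells of the same line the difference was 0.47 ± 0.22 (adjusted p = 0.78), and between Tomato+ and Tomato- cells it was 0.02 ± 0.27. The region 16.4 kb upstream of Smo gave 5.31, 4.52, 4.21, 4.41, 3.72, 2.61 and 2.47. It was 0.65 ± 0.27 higher in GFP+ than in Tomato+ cells (limma, unadjusted p = 0.0262, adjusted p = 0.492), but only 0.12 ± 0.27 higher than in GFP- cells. All 4 libraries of the Hoxb1GFP line were above all 3 of the Mef2c-Cre line, so these values followed the line as much as the sort. The promoter of Tspan33, a neighbour 41.3 kb upstream of Smo (chr6:29693943-29694740), went the other way, at 7.06, 4.85, 7.56, 8.59, 8.21, 10.1 and 8.75. It was lower in GFP+ cells by a log2 difference of -0.64 ± 0.23 (limma, unadjusted p = 0.0147, adjusted p = 0.438). Without Tomato+ library 6, the library with the doubtful run name, limma called 0 Hedgehog regions and the differences were 0.56 at the Gli3 promoter, 0.48 at the Hhip promoter, 0.96 upstream of Smo and -0.72 at Tspan33.

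Regions whose groups did not overlap were counted in each direction. After centring, both GFP+ libraries were above both Tomato+ libraries at 10 of 42 regions (23.8%), beside 17.3% of all regions. They were below them at 8 (19%), beside 20.4%. Of the 10, 4 lay in the Gli1 window (11 of the 42 tested), 2 in that of Smo and 1 each in those of Gli3, Hhip, Boc and Cdon. The 4 libraries of the Hoxb1GFP line were above the 3 of the Mef2c-Cre line at 4 regions (9.52%), beside 4.36%, and below them at 0, beside 4.06%. The 4 regions were the Smo upstream and Boc intron 1 regions given above, 1 in exon 12 of Gli1 and 1 lying 49.1 kb upstream of Cdon. With 2 libraries against 2, an exact two-sided permutation test of a single region cannot give a p below 0.333.

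The remaining comparisons set each sort against its own negative cells. In the Hoxb1GFP line, 0 of 42 Hedgehog regions were called by limma, beside 0% of all regions, and 5 passed by unadjusted p under 0.05, beside 6.38%. Those 5 were the promoters of Gli3, Hhip and Tspan33 and 2 regions of Ptch1. The larger of the Ptch1 differences was in intron 2, 18.7 kb into the gene (chr13:63554536-63554974), which gave 2.14, 2.43, 4.09, 3.62, 2.56, 4.48 and 4.32. It was lower in GFP+ than in GFP- cells by a log2 difference of -0.82 ± 0.27 (limma, unadjusted p = 0.00807, adjusted p = 0.598), while the Tomato+ libraries, at 2.56 and 4.48, were above both GFP+ libraries and overlapped the GFP- range. The other, 85.9 kb from the 5′ end (chr13:63487368-63487971), gave 3.51, 2.25, 4.53, 4.47, 3.29, 3.17 and 4.51. It was the only Hedgehog region with all 3 sort-negative libraries above all 4 sort-positive ones (2.38%), beside 3.12% of all regions.

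GFP+ libraries were both above GFP- libraries at 13 of 42 regions (31%), beside 16.2% of all regions, and both below at 9 (21.4%), beside 21.6%. Of the 13, 5 were in the Gli1 window, which supplied 11 of the 42 tested regions, and 3 of these 5 were the promoters of Ddit3, Mars1 and R3hdm2. Another 3 were in the window of Smo. Between Tomato+ and Tomato- cells limma called 0 of 42 regions, beside 0%, and 1 passed by unadjusted p under 0.05, beside 3.99% of all regions. It was the distal region beyond Cdon (0.79 ± 0.31, limma, unadjusted p = 0.0214, adjusted p = 0.999). The single Tomato- library was assumed to vary like the other groups. The difference between the sort contrasts of the 2 lines was called by limma at 0 of 42 regions, beside 0%. An unadjusted p under 0.05 was reached by 0, beside 4.5% of all regions.

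**Figure D4:**
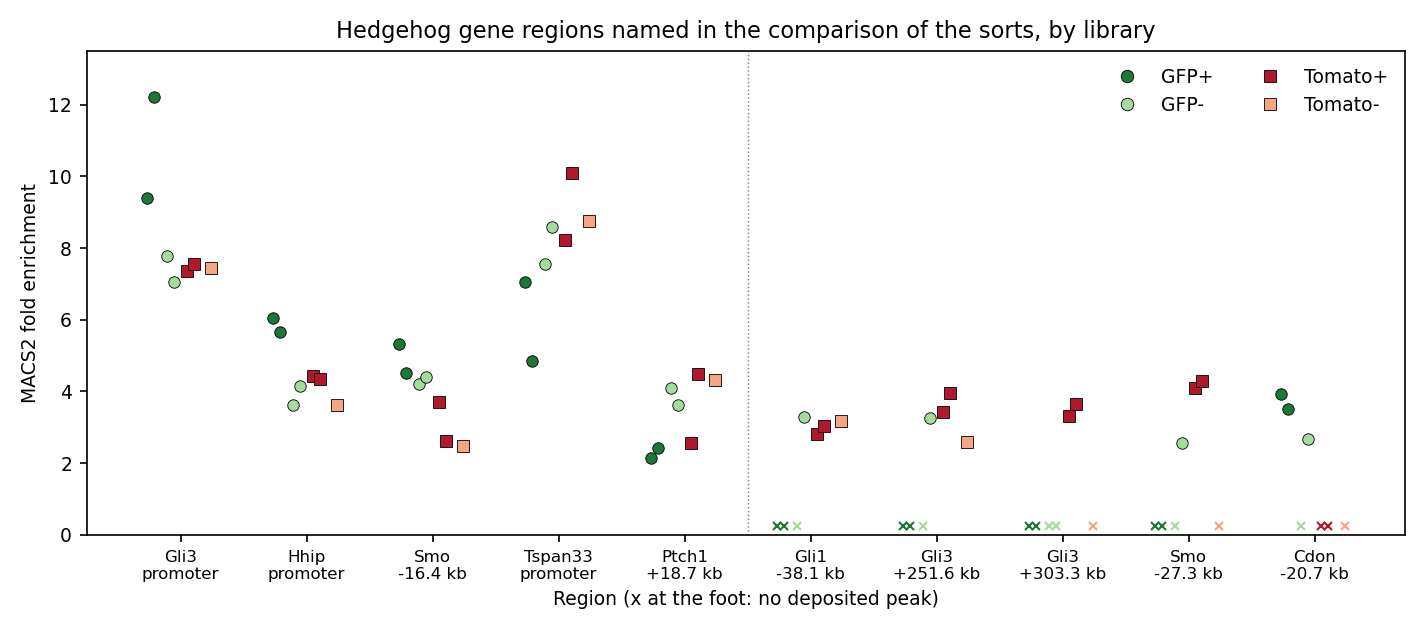
Fold enrichment by library (vertical axis) for the regions named in the comparisons, left of the dotted line those with a peak in every library and right of it the 5 present in 1 sort only, with crosses where the list has no peak. The Gli3 promoter has both GFP+ libraries, at 9.39 and 12.2, above the other 5.

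Presence and absence of peaks separated GFP+ from Tomato+ cells at 5 Hedgehog regions. A region was called present in a sort when both libraries had a peak of q at most 0.01 and neither library of the other sort had any deposited peak. Of the 53 Hedgehog regions present in both libraries of either sort, 1 was present in GFP+ and not in Tomato+ cells (1.89%), beside 2.62% of all such regions. It lay 20.7 kb upstream of Cdon (chr9:35400823-35401073), with 3.92 and 3.5 in GFP+ cells and 2.68 in GFP- library 2. The reverse held at 4 regions (7.55%), beside 2.01%.

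Of these 4, 3 also had a peak in sort-negative cells. The region 27.3 kb upstream of Smo (chr6:29708009-29708333) gave 4.11 and 4.29 in Tomato+ cells and a weaker 2.57 in GFP- library 2. A Gli3 region 303.3 kb from the start and beyond the 3′ end (chr13:15766855-15767120) was the only one with peaks in Tomato+ cells alone, at 3.32 and 3.66. A second Gli3 region, in intron 12 (chr13:15715200-15715368), gave 3.42 and 3.96 in Tomato+ cells, 3.26 in GFP- library 2 and 2.59 in Tomato- cells. The last, at the promoter of R3hdm2, 38.1 kb upstream of Gli1 (chr10:127379681-127379956), had peaks of 3.17 in Tomato- cells and 3.3 in GFP- library 2 beside 2.81 and 3.05 in Tomato+ cells. It is a minor part of that promoter, whose stronger region (chr10:127380165-127381532) passed in all 7 libraries. That region gave 7.26, 7.05, 6.09, 5.41, 5.58, 6.23 and 7.97. Absence here means that the list has no peak, not that the chromatin was closed. The counts rest on single libraries: with 1 library left in a sort they rose to 20 without GFP+ library 3, 27 without GFP+ library 4, 21 without Tomato+ library 6 and 27 without Tomato+ library 8, since presence then needed a single peak. Without Tomato+ library 6, the regions in GFP+ and not in Tomato+ cells also rose, from 1 to 5. The share over all regions was not counted with a library left out, so these counts have no background beside them.

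Exact GLI matches were found at 4 of the 279 regions (1.43%) within 200 bp of the summit on either strand, beside 0.56% of all regions. They comprised both Ptch1 promoters, the Smo upstream region, and a weak region in exon 13 of Gli1 that passed in 1 library and whose match lay outside the peak. The shorter core ACCACCCA, which the full motif contains, was found at 7 (2.51%), beside 2.64%. A HOX-PBX motif, TGATNNAT, was at 39 regions (14%), beside 12.9%, and a T-box motif, AGGTGTGA, at 3 (1.08%), beside 1.93%, both searched on either strand. No GLI match lay in the Gli3 or Hhip promoter windows searched, and a missing match says only that these letters are not there.

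The rest of the pathway was read from the promoters of a wider list of genes, beside the 53.1% of coding genes that passed in all 7 libraries. Receptors and coreceptors were the most uniformly open, with 8 of 9 genes passing in all 7 libraries, the exception being Cdon at its curated start site. The count was 6 of 8 for the Gli factors and their regulators, 5 of 6 for cilium genes and 4 of 8 for ligands and genes of ligand release. Promoter peaks of the other ligands were weak: Ihh had peaks in all 7 libraries at 1.84 to 3.58, of which 2 passed, and Dhh in 3 libraries, of which 1 passed. Hhat, which attaches palmitate to the ligands, passed in 5. Gpr161, a ciliary receptor that favours the repressor form of Gli3, had a single peak of 2.32, in GFP+ library 4. For genes outside the 9, only curated start sites were read, so a peak at a model start site would be missed. In a list of 9 further known targets, which leaves out Ptch1, Hhip and Gli1, 2 passed in all 7 libraries, 5 in some and 2 in none. Ptch1 and Hhip passed in all 7 and Gli1 in 4.

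**Figure D5:**
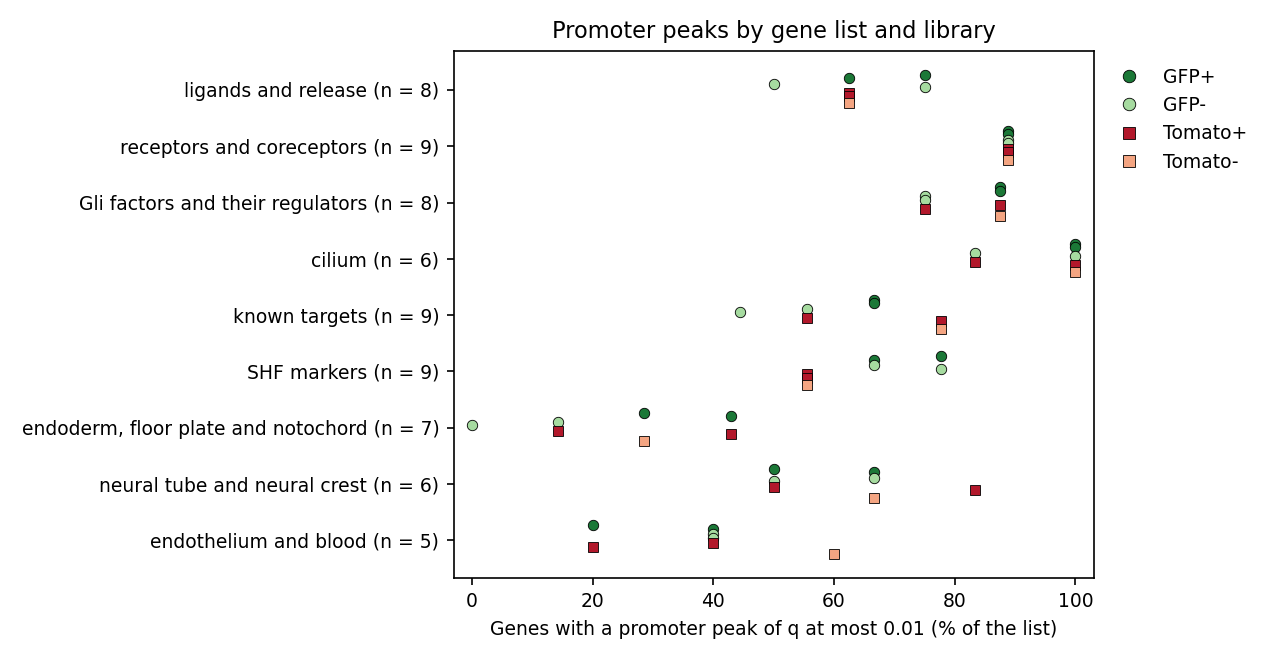
Share of genes with a promoter peak of q at most 0.01 (horizontal axis, percent of the list) for each gene list, with 1 symbol per library coloured by population. Receptors and coreceptors stand at 8 of 9 genes in every library, whereas the endoderm, floor plate and notochord list ranges from 0 to 3 of 7.

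Markers of the tissue and of its neighbours were counted the same way. The share of all coding gene promoters was not counted per library, so these counts have no background beside them. Of 9 SHF markers, 6 to 7 passed in each library of the Hoxb1GFP line and 5 in each of the Mef2c-Cre line. The counts were 7 and 6 in GFP+ cells and 6 and 7 in GFP- cells. Tbx5 passed in GFP- library 2 alone and Hoxb1 in all libraries but Tomato+ library 6. Osr1 passed in both GFP+ libraries, GFP- library 2 and Tomato+ library 8. Of 7 markers of endoderm, floor plate and notochord, the tissues that make Shh, 2 and 3 passed in GFP+ cells, 1 and 0 in GFP-, 1 and 3 in Tomato+ and 2 in Tomato- cells. Epcam and Nkx2-2 passed in none. Counts were 3 to 5 of 6 for neural tube and neural crest and 1 to 3 of 5 for endothelium and blood. Promoters can be open in cells that do not express the gene, and the part of other cell types in the Hedgehog values was not tested.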

How the data were processed

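ATAC-seq peak lists of 7 libraries were analysed. Alignment by the authors used SNAP and GRCm38. They dropped duplicate reads and blacklisted regions and called peaks on each library alone with MACS2 (2.1.1 in the submitters' notes, 2.1.0.20150731 in the only header). Per the file headers, of which only Tomato+ library 6 has one, with a run name that refers to YFP, MACS2 ran without a control at a p-value limit of 0.01, with a tag shift of 37 bp and extension of 73 bp, which can displace summits and widen peaks. The deposited values are the summit pileup (a coverage signal), fold enrichment over local background (a ratio), and -log10 p-values and q-values. Depth, derived from each list's background level assuming the same extension, was 52340120 to 93074895 tags.

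Peaks with several summits were reduced to the summit with the smallest p-value. Regions were peaks of q at most 0.01 merged over libraries, and each took its best overlapping peak per library. Log2 fold enrichment, centred on each library's median over 34032 regions, was compared with limma 3.58.1 (R 4.3.3, intensity trend, all 4 groups sharing 1 spread), with Benjamini-Hochberg adjustment and a threshold of 0.1. The scripts were tested on simulated data. The authors' DiffBind test needs read counts and was not repeated. Nothing in the labels separates cultures or embryos, so p-values measure only the spread between these libraries, which may be technical. Genes, lists and motifs were chosen with earlier results of these data known. Regions named were each gene's promoters and highest distal region, those present in 1 sort only and those with a GLI match, while those named for an unadjusted p or for groups that did not overlap were chosen after their values were seen. Other scalings, q limits, overlaps, windows and omitted libraries were tried.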

Additional observations from a re-analysis of the deposited data

How the results depend on the processing

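Of 145 alternative values, direction was followed only for the 4 named log2 differences, and none of these reversed. Of the 145, 13 moved beyond 1.5 times a count or, for a rank, beyond the spread between libraries. The others stayed within these limits or, for log2 differences, kept their side of the threshold. Some log2 differences still moved by over 1.5 times. No Hedgehog region was called by limma in the 14 alternatives for GFP+ against Tomato+ cells, the 14 for GFP+ against GFP-, or the 12 for each of the other contrasts, and the lowest adjusted p over them was 0.228. For each contrast these include the main fit read at 0.05, which could not add calls. The Gli3 promoter difference ranged from 0.35 to 0.74 (adjusted p 0.404 to 0.874), that of Hhip from 0.39 to 0.66, the latter by pileup (0.43 to 0.908), the Smo upstream region from 0.39 without Tomato+ library 8 to 0.96 without Tomato+ library 6 (0.278 to 0.858) and Tspan33 from -0.88 without GFP+ library 3 to -0.35 without GFP+ library 4 (0.354 to 0.87). Of all regions, 42 were called for GFP+ against Tomato+ cells, but 137 higher and 54 lower by pileup, 11 and 14 with 50% overlap, 0 without an intensity trend, 0 without either GFP+ library, 1 and 2 without either GFP- library, 71 and 34 without Tomato+ library 8, and 1 and 1 in the 4 sorted libraries alone; 1 was called at 0.05. For GFP+ against GFP- cells, 5 and 48 were called in their 4 libraries alone, 3 lower with q at most 0.01 in every library, and 29 lower without Tomato+ library 6. Without Tomato+ library 8, the Tomato contrast gave 2 and 4, and the difference of the contrasts 3 and 1. Regions present in GFP+ and not Tomato+ cells numbered 1, or 2 with absence as no peak of q at most 0.01, 0 with q at most 0.001, and 1 to 27 with a library left out. The reverse numbered 4, or 1 with q at most 0.001 and 4 to 27 with a library left out. Without either GFP+ library the first count exceeded the second, opposite to the main setting. The cause of these changes was not tested, beyond presence needing a single peak where 1 library is left. For these alternative presence counts the share over all regions was not counted. GLI matches numbered 4, or 7 with the 8-letter core. Contrasts with Tomato- cells could not be fitted without their only library. A lone library left in a group was assumed to vary like the others. No paired analysis was made. The library numbers are those of the sequencing adapters, and the labels do not say whether any sort-positive and sort-negative libraries came from the same pool. Such a pairing is therefore unknown, and the sort contrasts were fitted unpaired. With 2 libraries a group or fewer, the median SE of 0.25 limits what could be called.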
